A study of Mus musculus with 6 samples.

Results

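A set of 40 genes of mitosis and DNA replication was followed in mouse embryonic stem (ES) cells with and without a Prmt6 expression plasmid: 22 genes that act in mitosis and 18 that act in DNA replication or at the G1/S transition. They were chosen by name, with earlier results of these data known. Each was read on 1 probe set, the brightest on average among those annotated to that symbol alone. Of the 40 members, 39 were measured, among 19938 genes in all. Ccnb1, the cyclin B1 gene, had no single-symbol probe set among those used and was not analysed here.

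All cells were of 1 mouse ES cell line, HM1, grown in 15% serum with LIF at 1000 U/ml, a cytokine that keeps mouse ES cells undifferentiated. Both groups were transfected with pCAGIP.puro, empty in the control and with mouse Prmt6 cloned in for overexpression, and both were kept for 3 days in puromycin at 1 ug/ml. Prmt6 encodes an arginine methyltransferase of the nucleus whose substrates include histones. There were 3 control arrays and 3 overexpression arrays, 1 per sample, and the labels do not say whether the samples came from separate cultures, which leaves the p-values as a measure of a sample-to-sample spread that could be technical. Prmt6 itself read 6.84, 6.58 and 7.12 in control and 7.32, 7.40 and 7.33 in overexpression (log2 signal), a rise of 0.50 ± 0.13 (SE, adjusted p = 0.0406). The call was lost on leaving out control replicate 1 or 2 or any overexpression array (adjusted p from 0.0788 to 0.119), and with a replicate block (0.0615).

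The cell cycle machinery is transcribed in waves. In G1, D-type cyclins with their kinases relieve the block that the retinoblastoma family places on E2F transcription factors, and E2F then drives cyclin E and the replication genes. Origins are licensed by ORC and CDC6, which load the ring-shaped MCM helicase, and PCNA is the sliding clamp of the polymerases. Later, in G2 and mitosis, cyclin A and cyclin B with CDK1, the Aurora and Polo kinases, kinesin motors and the spindle checkpoint carry the cell through chromosome segregation. Mouse ES cells are known for a short G1 phase and for high activity of these genes.

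With the Prmt6 plasmid, 4 of the 21 measured mitosis members fell and none of the 18 replication and G1/S members passed in either direction. The mitosis members that fell were Bub1, Cenpe, Cenpf and Mki67, with falls of 0.29 to 0.36 on the log2 scale. Over all 19938 genes, 3.25% fell and 7.05% rose (limma, Benjamini-Hochberg adjusted p under 0.05). The median change was -0.21 over the measured mitosis members and 0.03 over the replication and G1/S members, against 0.00 over all genes. Under quantile normalization the second median turned to -0.032, so the replication and G1/S members have no direction as a group. RNA came from whole cultures, so a change in the mix of cells, such as fewer cells in mitosis, and less transcript per cell cannot be told apart.

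**Figure D1:**
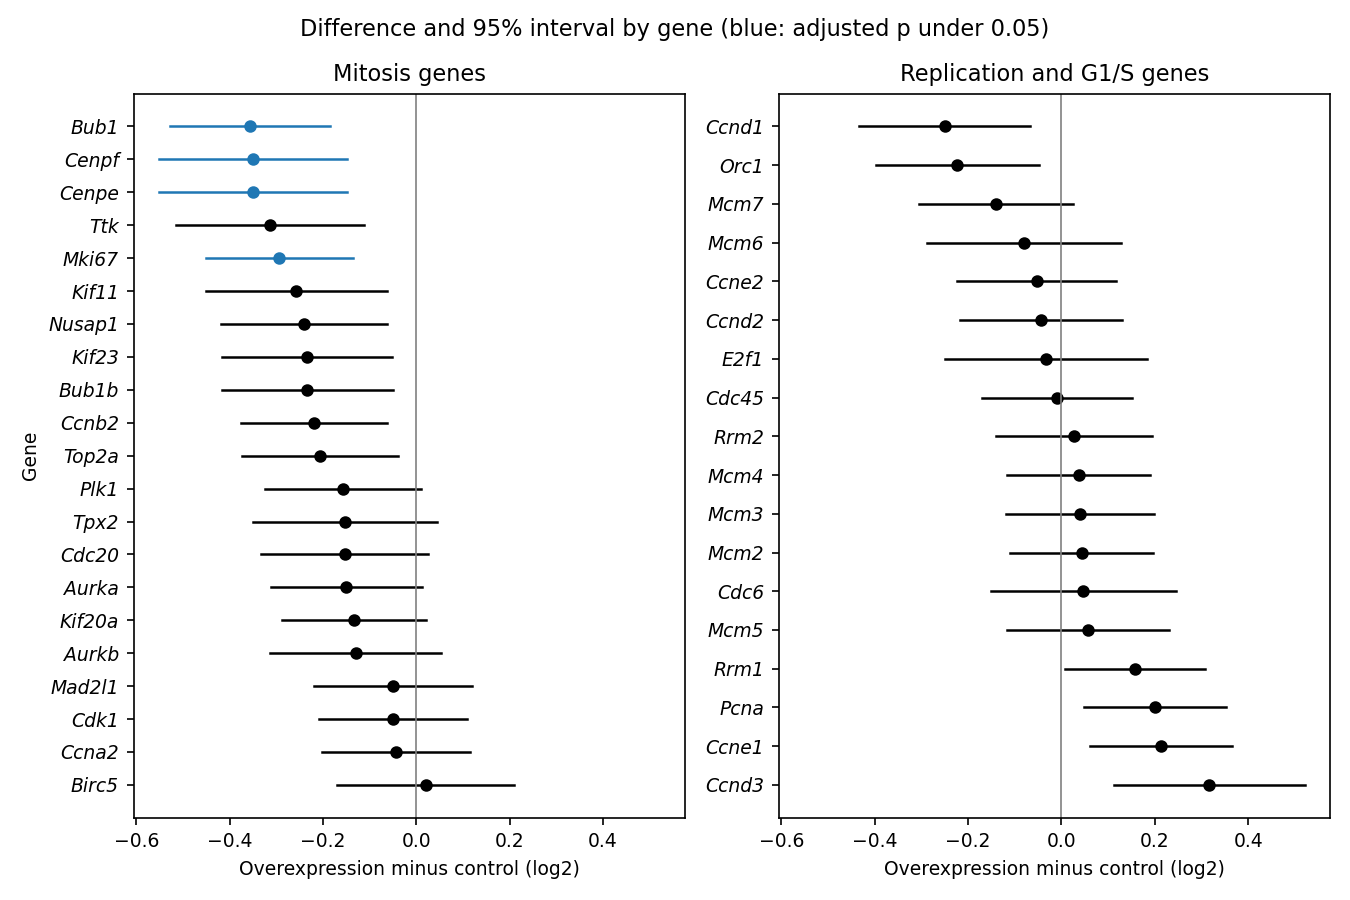
Log2 difference of overexpression minus control (dots) with its 95% interval (lines) for each measured member, mitosis genes on the left, replication and G1/S genes on the right, and blue for an adjusted p under 0.05. Of the mitosis genes, 20 of 21 lie below 0, and the replication and G1/S genes lie on both sides of it, 8 below and 10 above.

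Promoters of the members are shown here because mitosis and replication genes are known to differ in the elements they carry there. Sequences are from RefSeq (GRCm38.p6), and 32 of the 40 members had an entry of 300 bases, from 250 before to 50 after the start site. The elements searched, on both strands, were TTTGAA, the core of the cell cycle genes homology region (CHR) found in late cell cycle promoters, CCAAT, the box bound by NF-Y, and the E2F words TTTCCCGC, TTTCGCGC, TTTGCCGC and TTTGGCGC. The promoters of the 4 mitosis members that fell and of Ttk are printed from 220 bases before to 30 after the start site, with matches to any of these words, on either strand, in capitals.
Bub1, chr2:127831830-127832079, minus strand: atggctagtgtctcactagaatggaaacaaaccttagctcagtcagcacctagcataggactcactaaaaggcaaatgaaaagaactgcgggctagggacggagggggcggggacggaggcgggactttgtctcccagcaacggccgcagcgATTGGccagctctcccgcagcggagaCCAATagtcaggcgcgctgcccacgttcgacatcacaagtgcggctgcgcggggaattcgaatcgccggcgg
Cenpe, chr3:135212343-135212592, plus strand: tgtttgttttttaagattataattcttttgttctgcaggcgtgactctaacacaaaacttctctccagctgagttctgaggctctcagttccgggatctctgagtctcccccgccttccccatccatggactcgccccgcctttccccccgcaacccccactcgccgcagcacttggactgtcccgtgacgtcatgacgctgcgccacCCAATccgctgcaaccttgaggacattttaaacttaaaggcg
Cenpf, chr1:189688057-189688306, minus strand: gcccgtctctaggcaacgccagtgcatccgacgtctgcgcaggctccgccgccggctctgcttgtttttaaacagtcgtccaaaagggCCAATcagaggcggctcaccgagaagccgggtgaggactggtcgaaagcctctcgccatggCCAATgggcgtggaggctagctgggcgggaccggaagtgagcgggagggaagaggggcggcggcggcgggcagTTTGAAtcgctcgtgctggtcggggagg
Mki67, chr7:135716350-135716599, minus strand: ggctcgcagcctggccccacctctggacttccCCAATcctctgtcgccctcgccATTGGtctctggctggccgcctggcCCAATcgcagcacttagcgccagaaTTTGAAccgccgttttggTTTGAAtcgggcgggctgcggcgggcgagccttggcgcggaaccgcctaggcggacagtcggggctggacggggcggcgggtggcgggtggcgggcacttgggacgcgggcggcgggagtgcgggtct
Ttk, chr9:83834469-83834718, plus strand: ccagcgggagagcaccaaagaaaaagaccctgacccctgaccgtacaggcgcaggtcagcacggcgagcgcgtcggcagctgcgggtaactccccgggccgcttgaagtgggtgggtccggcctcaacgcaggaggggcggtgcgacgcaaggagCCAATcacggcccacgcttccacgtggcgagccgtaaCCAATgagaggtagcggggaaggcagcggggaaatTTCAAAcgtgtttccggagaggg

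For contrast, these are the same windows of 3 replication members whose promoters hold an E2F word, with the same marking.
Mcm5, chr8:75109289-75109538, plus strand: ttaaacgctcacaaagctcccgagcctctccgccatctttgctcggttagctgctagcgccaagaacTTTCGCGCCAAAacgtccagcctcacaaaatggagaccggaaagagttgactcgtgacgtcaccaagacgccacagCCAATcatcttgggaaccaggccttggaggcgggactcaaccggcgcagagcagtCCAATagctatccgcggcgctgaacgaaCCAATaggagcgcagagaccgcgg
Cdc6, chr11:98907931-98908180, plus strand: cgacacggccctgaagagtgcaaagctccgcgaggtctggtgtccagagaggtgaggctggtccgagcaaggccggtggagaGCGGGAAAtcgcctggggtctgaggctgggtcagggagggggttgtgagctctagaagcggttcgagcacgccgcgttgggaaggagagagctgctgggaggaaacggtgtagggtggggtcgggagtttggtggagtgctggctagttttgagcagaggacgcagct
Orc1, chr4:108579234-108579483, plus strand: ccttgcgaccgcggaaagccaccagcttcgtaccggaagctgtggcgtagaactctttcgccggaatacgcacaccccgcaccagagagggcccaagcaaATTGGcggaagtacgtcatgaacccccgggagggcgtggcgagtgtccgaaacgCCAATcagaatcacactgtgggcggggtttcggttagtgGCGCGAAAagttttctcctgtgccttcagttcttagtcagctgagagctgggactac

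The CHR core was present in 12 of the 18 mitosis members with an entry (66.7%), against 2 of 14 replication and G1/S members (14.3%) and 17.3% of the tested genes with an entry. An E2F word was present in 6 of 14 replication and G1/S members (42.9%), namely Mcm3, Mcm5, Mcm6, Mcm7, Cdc6 and Orc1, and in 1 mitosis member, Cdk1 (5.56%), against 3.48% of the tested genes with an entry. CCAAT was frequent in both groups, at 15 of 18 and 11 of 14, against 41.7%. In Cenpf the CHR core began at base 3, with the start site as base 1, in Mki67 it began at positions -116 and -98, counted backwards with no 0, and in Ttk its reverse form began at base 8. Neither the Bub1 nor the Cenpe window held TTTGAA, so that 2 of the 4 mitosis members that fell had this word and 2 did not. Variant forms of the CHR were not searched, so this split is by the word TTTGAA alone. E2F words can overlap each other, as they do in Mcm5, and a gene with 2 entries, such as Mcm7, was counted if either held the word. A match describes letters in a window and is not evidence that a factor binds there.

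Of the spindle checkpoint genes, Bub1, the kinase that recruits checkpoint proteins to kinetochores, read 9.89, 9.90 and 9.87 in control and 9.63, 9.52 and 9.44 in overexpression (log2 signal). All 3 overexpression arrays lay below all 3 control arrays, and the fall was 0.36 ± 0.075 (SE) on the log2 scale, 21.9% of the control signal (95% interval of the log2 difference -0.53 to -0.18, adjusted p = 0.0196). Ttk, the kinase MPS1 that starts checkpoint signalling, read 8.70, 8.54 and 8.72 in control and 8.43, 8.38 and 8.21 in overexpression. The groups of Ttk did not overlap either, yet its difference of -0.31 ± 0.088 did not pass (adjusted p = 0.0614). Bub1b, the gene of the checkpoint protein BUBR1, read 9.98, 9.90 and 10.01 against 9.85, 9.68 and 9.66, a difference of -0.23 ± 0.08 that did not pass (0.111). Mad2l1, whose product MAD2 holds CDC20 in check, was at -0.05 ± 0.074, with arrays from 10.42 to 10.48 in control and from 10.31 to 10.47 in overexpression that overlapped. The 4 checkpoint members ranged from a called fall to a difference near 0, although their products act in the same pathway.

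Cenpe, a kinesin that links kinetochores to microtubules, read 8.34, 8.30 and 8.39 in control and 8.16, 7.92 and 7.90 in overexpression. Cenpf, a large protein of the outer kinetochore, read 8.56, 8.55 and 8.62 in control and 8.39, 8.11 and 8.18 in overexpression. In both genes overexpression replicate 1 was the highest of its group and still lay below every control array. Cenpe fell by 0.35 ± 0.088 (adjusted p = 0.0409) and Cenpf by 0.35 ± 0.088 (0.0406), 21.5% of the control signal in each.

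Mki67, which coats mitotic chromosomes and gives the Ki-67 proliferation marker, read 8.90, 8.94 and 8.91 in control and 8.68, 8.62 and 8.57 in overexpression. The groups did not overlap, and the fall was 0.29 ± 0.069 (18.4% of the control signal, adjusted p = 0.0308). Top2a, the topoisomerase that untangles sister chromatids, read 10.51, 10.42 and 10.52 against 10.33, 10.30 and 10.20 without overlap, a difference of -0.21 ± 0.073 that did not pass (0.122). A further probe set of Top2a was dim, with arrays from 4.69 to 5.50, under every array median (5.54 to 5.62). It was at -0.41 ± 0.14 and did not pass either (0.114).

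The calls of Bub1, Cenpe, Cenpf and Mki67 each rested on all arrays but 1. Without control replicate 1, 2 or 3 or without overexpression replicate 2 or 3, adjusted p rose to between 0.0502 and 0.0783 for Bub1, 0.0944 and 0.141 for Cenpe, 0.0927 and 0.138 for Cenpf and 0.0720 and 0.113 for Mki67, and 0 mitosis members were called. Without overexpression replicate 1 there were 6, with Bub1b and Kif23 added, against 3.83% of all genes that fell there. With genes under the median signal left out of the test there were 11 of 21, against 10.8% of the genes then tested.

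**Figure D2:**
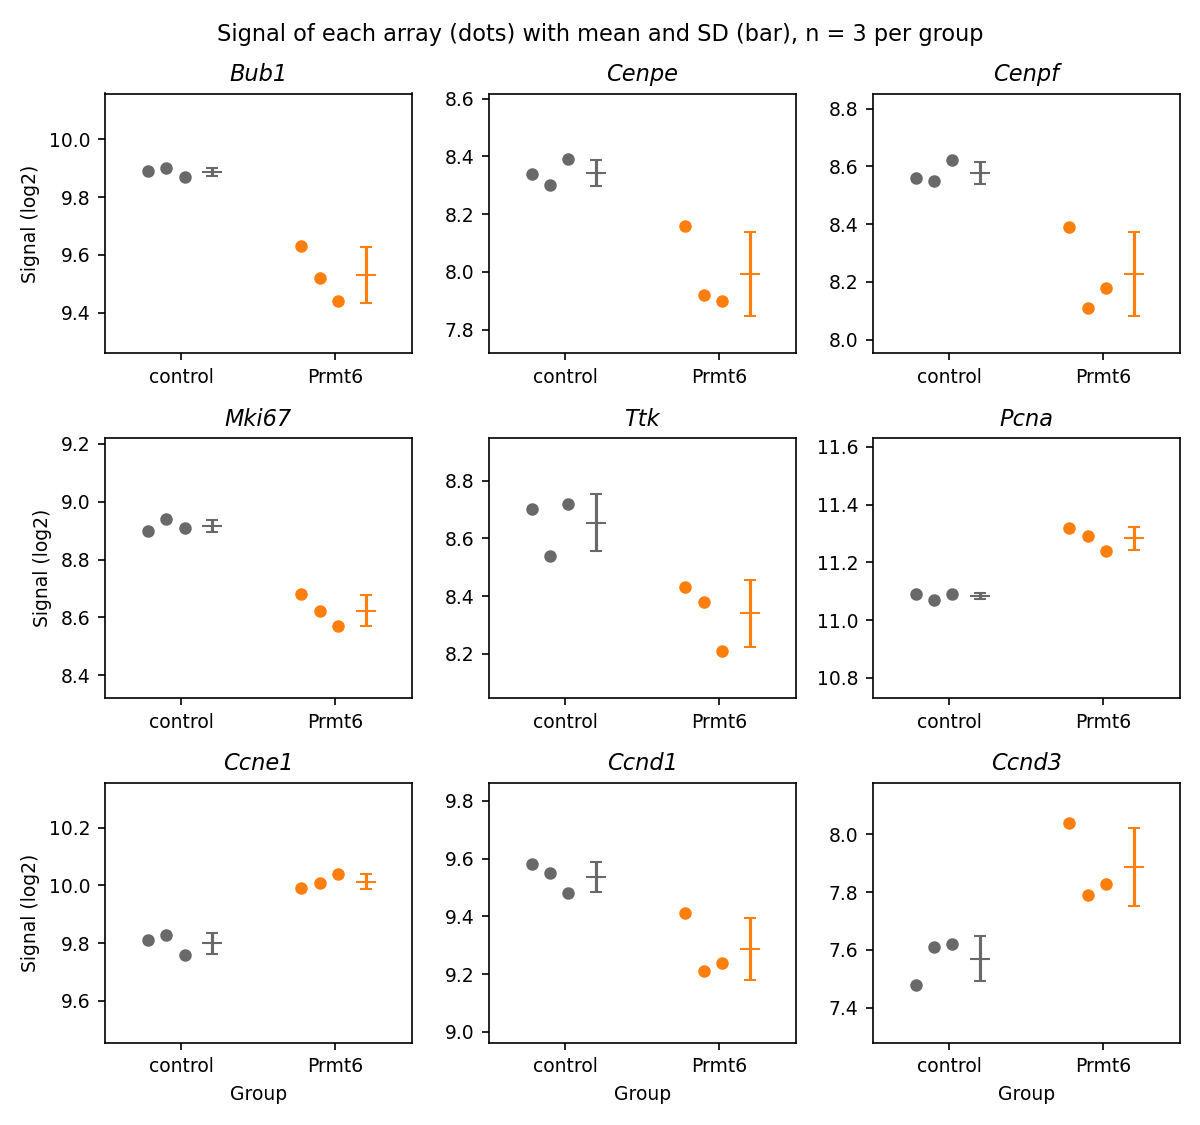
Log2 signal of each array (dots) with the mean and SD of each group (bar, n = 3) for the 4 mitosis members that fell, Ttk, and 4 replication or G1/S members that did not pass, each panel spanning 0.9 on the log2 scale around its own centre. The 9 genes shown are among those whose groups do not overlap (29.7% of all genes), with Pcna, Ccne1 and Ccnd3 higher in overexpression and the others lower, whereas 11 of the 18 replication and G1/S members overlap.

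Of the spindle motors, Kif11, the kinesin that pushes spindle poles apart, read 9.10, 9.07 and 9.23 in control and 9.0, 8.83 and 8.80 in overexpression (-0.26 ± 0.085, adjusted p = 0.0993). Kif23, a motor of the central spindle needed for cytokinesis, read 9.42, 9.39 and 9.46 against 9.31, 9.17 and 9.09 (-0.23 ± 0.08, 0.109). Kif20a, another motor of the central spindle, was at -0.13 ± 0.067 (0.272). None of these 3 motors passed, and in each all overexpression arrays lay below all control arrays, as they did in 12.7% of all genes. Of the spindle assembly genes, Nusap1, which stabilises microtubules near chromosomes, was at -0.24 ± 0.078 (0.0951) without overlap. Tpx2, the activator of Aurora A on the spindle, was at -0.15 ± 0.086 (0.327), with overexpression replicate 1 at 9.50 inside the control range of 9.45 to 9.59.

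The kinases and cyclins that drive entry into mitosis did not pass. Aurka, the centrosomal Aurora kinase, was at -0.15 ± 0.07 and Plk1, the Polo kinase, at -0.16 ± 0.073, both without overlap between groups. Cdk1, the mitotic cyclin-dependent kinase, was at -0.05 ± 0.069 and Ccna2, its cyclin A2 partner in S phase and G2, at -0.04 ± 0.069, with overlap in both and with Ccna2 at 0.0033 when arrays were centred on their medians. The 95% intervals were -0.21 to 0.11 for Cdk1 and -0.20 to 0.11 for Ccna2, so falls as large as that measured for Bub1 lay outside them. Ccnb2, cyclin B2, read 9.99, 9.91 and 9.95 in control and 9.69, 9.73 and 9.77 in overexpression, a difference of -0.22 ± 0.068 (adjusted p = 0.0835). Among the overexpression arrays, Ccnb2 was lowest in replicate 1, whereas Bub1, Cenpe and Mki67 were highest there.

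Of the chromosomal passenger genes, Aurkb, the Aurora kinase that corrects attachments, was at -0.13 ± 0.08 (adjusted p = 0.371), and Birc5, the gene of survivin, at 0.02 ± 0.083 (0.919). Birc5 was the 1 mitosis member above 0, and it lay at -0.026 under quantile normalization. Cdc20, the activator of the anaphase-promoting complex, read 9.94, 9.99 and 10.09 in control and 9.76, 9.89 and 9.91 in overexpression, without overlap (-0.15 ± 0.078, 0.279).

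Across the mitosis members, 20 of 21 lay below 0, against 49.6% of all genes. In 15 of 21 all overexpression arrays lay below all control arrays, against 12.7% of all genes, and in none did they all lie above, against 17%. In either direction, 29.7% of all genes had groups that did not overlap. At an unadjusted p under 0.05, 11 of 21 were lower, against 10.4% of all genes. The mitosis members were bright, with a median signal at percentile 94.3 of all genes, and the shares over all genes include dim ones. With genes under the median signal left out, 10.8% of the genes then tested were called lower. The other shares were not worked out for bright genes alone. The sizes were small: the mitosis members ran from -0.36 to 0.02, and the widest 95% intervals among them reached -0.55, short of a halving. The members share cells and arrays and are known to be transcribed together, so they are not independent counts.

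**Figure D3:**
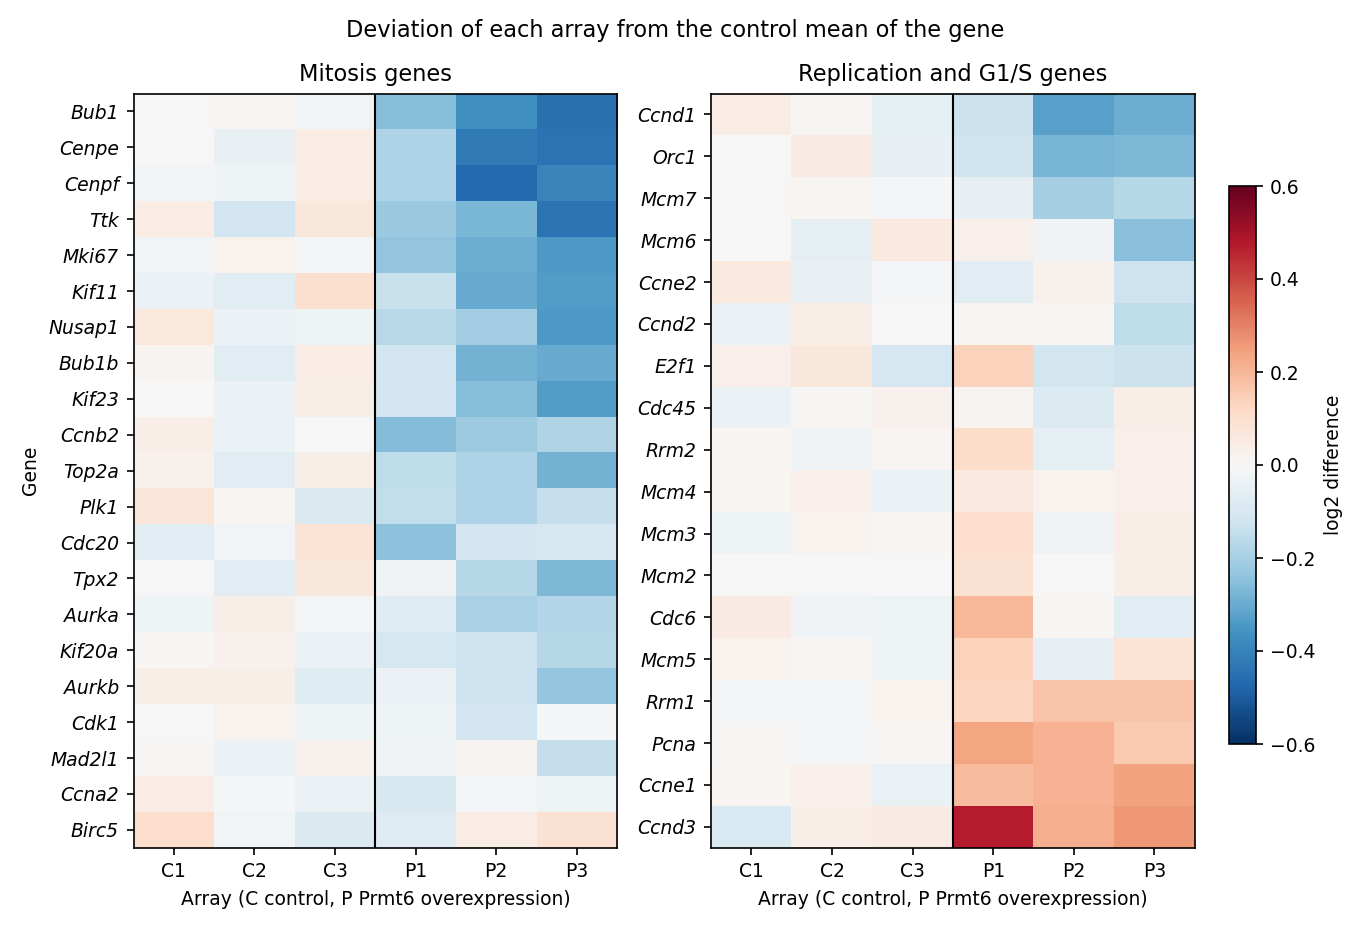
Deviation of each array from the control mean of the gene (colour, log2) for the measured members, with control arrays C1 to C3 and overexpression arrays P1 to P3 and genes ordered by their difference. Mitosis genes are mostly blue in the 3 overexpression arrays, least in replicate 1, and replication and G1/S genes hold both colours.

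The overexpression arrays differed among themselves. The mean deviation of the 21 mitosis members from their control means was -0.14, -0.20 and -0.24 in overexpression replicates 1, 2 and 3, and -0.022 to 0.014 in the control arrays. The same mean over the 18 replication and G1/S members was 0.087, -0.015 and -0.021 in the overexpression arrays. Replicate 1 was the highest overexpression array in 14 of 21 mitosis members and in 13 of 18 replication and G1/S members, so it stood higher for both groups. The median SD over the mitosis members was 0.045 in control and 0.087 in overexpression (n = 3 each), and over all genes it was 0.082 and 0.115.

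None of the MCM helicase subunits passed, and Mcm2, Mcm3, Mcm4 and Mcm5 lay closest to 0. Mcm2 read 10.59, 10.59 and 10.59 in control and 10.68, 10.59 and 10.63 in overexpression, and Mcm3, Mcm4 and Mcm5 were at 0.04 ± 0.07, 0.04 ± 0.067 and 0.06 ± 0.076. Mcm6 and Mcm7 were at -0.08 ± 0.091 and -0.14 ± 0.072. Mcm7 was the helicase subunit whose groups did not overlap, with 10.88, 10.89 and 10.87 against 10.83, 10.68 and 10.71 (adjusted p = 0.282). Under quantile normalization Mcm2, Mcm3, Mcm4 and Mcm5 lay at -0.049, -0.021, -0.02 and -0.005, so these data give them no direction. Cdc45, which joins the MCM ring in the active helicase, was at -0.01 ± 0.07, with a 95% interval of -0.17 to 0.15.

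Of the licensing genes, Orc1, the large subunit of the origin recognition complex, read 7.87, 7.92 and 7.82 in control and 7.75, 7.59 and 7.60 in overexpression. Its groups did not overlap, and its difference of -0.22 ± 0.076 did not pass (adjusted p = 0.110). Cdc6, which loads MCM with ORC, read 8.27, 8.20 and 8.19 against 8.42, 8.23 and 8.15, which overlap (0.05 ± 0.087). Without overexpression replicate 1 the difference of Cdc6 was -0.03, so it has no settled sign. The promoters of both genes, shown above, hold an E2F word.

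Pcna, the sliding clamp, read 11.09, 11.07 and 11.09 in control and 11.32, 11.29 and 11.24 in overexpression. The groups did not overlap, and the difference of 0.20 ± 0.067 did not pass (adjusted p = 0.103). A further probe set annotated to Pcna gave array values within 0.01 of these, so the pair may share signal, and a near-identical copy cannot be told apart from the gene here. Rrm1, the large subunit of ribonucleotide reductase, which makes deoxyribonucleotides, read 9.94, 9.94 and 9.97 against 10.08, 10.12 and 10.12, again without overlap (0.16 ± 0.066, 0.185). Its small subunit Rrm2, the member of the pair whose level is known to follow S phase, was at 0.03 ± 0.073 with overlapping arrays and at -0.037 under quantile normalization.

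The G1 cyclins lay on both sides of 0, and none passed. Ccne1, cyclin E1, read 9.81, 9.83 and 9.76 in control and 9.99, 10.01 and 10.04 in overexpression (0.21 ± 0.067, adjusted p = 0.0859). Its relative Ccne2 was at -0.05 ± 0.074 with overlap. Ccnd3, cyclin D3, read 7.48, 7.61 and 7.62 in control and 8.04, 7.79 and 7.83 in overexpression (0.32 ± 0.089, 0.0615). Ccnd1, cyclin D1, read 9.58, 9.55 and 9.48 against 9.41, 9.21 and 9.24 (-0.25 ± 0.08, 0.0919), and Ccnd2 was at -0.04 ± 0.076. Of the 3 D-type cyclins, then, Ccnd3 was higher in every overexpression array, Ccnd1 lower in every one, and Ccnd2 overlapped. Ccnd3 and Ccne1 passed as rises when arrays were centred on their medians (0.0383 and 0.0442), a step that raised the difference of every gene by 0.047. Ccnd1 passed as a fall without overexpression replicate 1 (0.0383). E2f1, a transcription factor of the G1/S wave, was at -0.03 ± 0.095 and lay at 0.013 with arrays centred.

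Across the replication and G1/S members, 10 lay above 0 and 8 below. In 3 of 18 all overexpression arrays lay below all control arrays (12.7% of all genes) and in 4 of 18 all lay above (17%). Their 95% intervals lay between -0.43 and 0.52, so a doubling or a halving lay outside every one of them. Whether the mitosis and the replication members differ from each other was not tested.

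Other genes of the same processes were counted in the same fit. Of 82 further mitosis genes in 4 lists, 81 were measured, 12 fell, none rose and 69 did not pass, against 3.25% of all genes that fell. With genes under the median signal left out of the test, 22 of these mitosis genes fell, against 10.8% of the genes then tested. Of 42 further replication genes in 2 lists, 41 were measured, 1 fell, none rose and 40 did not pass. Under the same filter 5 of these replication genes fell, against the same 10.8%. Of the 81 mitosis genes 69 lay below 0, with a median of -0.12, against 49.6% of all genes below 0. Of the 41 replication genes 19 lay below 0, with a median of 0.0067.

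Among 22 other kinetochore and checkpoint genes, 2 fell and 20 did not pass (median -0.18), against 3.25% of all genes that fell. They were Knl1, the scaffold on which BUB1 docks (-0.49 ± 0.09, adjusted p = 0.00998), and Sgo2a, a shugoshin that protects centromeric cohesion (-0.32 ± 0.081, 0.0425). Among 21 measured spindle and cytokinesis genes, 7 fell and 14 did not pass (median -0.25), and all 21 lay below 0. Hmmr, a spindle-associated hyaluronan receptor (-0.55 ± 0.092, 0.00668), and Ckap2, a microtubule-associated protein (-0.53 ± 0.084, 0.00505), had the largest falls of that list. The calls of Knl1, Hmmr and Ckap2 held without each array in turn, with adjusted p up to 0.0456, 0.0350 and 0.0275, while that of Sgo2a was lost on leaving out any array other than overexpression replicate 1 (0.0794 to 0.157).

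Of 22 other genes of mitotic entry and exit, 1 fell and 21 did not pass (median -0.03), a share near the 3.25% of all genes that fell. It was Espl1, the gene of separase, which cleaves cohesin at anaphase (-0.39 ± 0.083, adjusted p = 0.0214), and its call was lost on leaving out any array other than overexpression replicate 1 (0.0518 to 0.0856). Of 16 condensin and cohesin genes, 2 fell and 14 did not pass (median -0.13), against the same 3.25%. These were the condensin subunits Ncapg (-0.43 ± 0.084, 0.0137) and Ncapd3 (-0.28 ± 0.072, 0.0459). The Ncapg call was lost when control replicate 1 or 3 or overexpression replicate 2 was left out (0.0506 to 0.0623), and that of Ncapd3 when any array other than overexpression replicate 1 was (0.0971 to 0.169).

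Of 18 other origin licensing and firing genes none passed (median -0.05), and the smallest p was that of Cdc7, the kinase that fires origins, at -0.32 ± 0.086 (adjusted p = 0.0515). Of 23 measured replication fork and nucleotide supply genes, 1 fell and 22 did not pass (median 0.05), a share near the 3.25% of all genes that fell and no result about the list. It was Pole, the catalytic subunit of the leading-strand polymerase (-0.28 ± 0.072, 0.0440), whose call was lost on leaving out any array other than overexpression replicate 1 (0.0933 to 0.146).

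**Figure D4:**
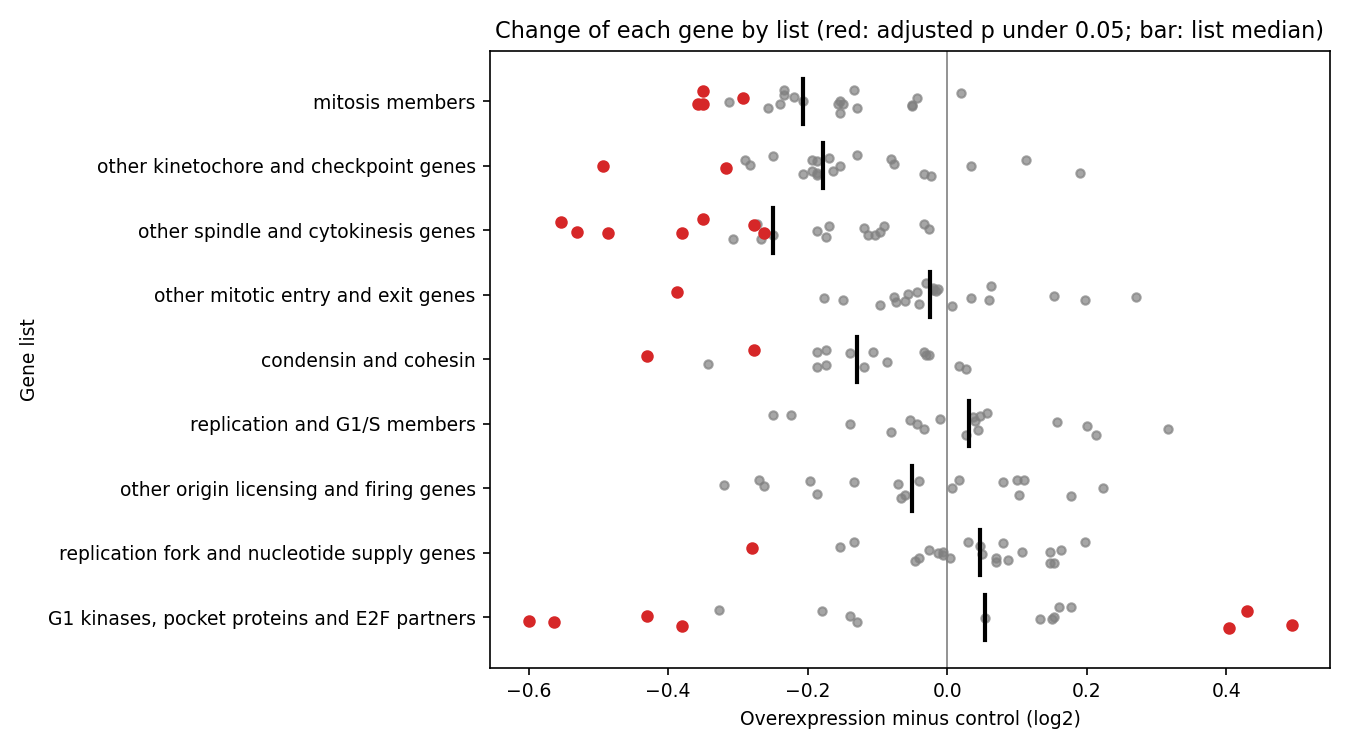
Log2 difference of each gene (dots) in 9 lists, with red for an adjusted p under 0.05 and a black bar at the list median. The spindle and cytokinesis list lies wholly below 0 (median -0.25), the mitosis members have a median of -0.21, and the list of G1 kinases, pocket proteins and E2F partners holds both rises and falls.

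Genes that act upstream of the G1/S transition were counted as well. Of 17 G1 kinases, pocket proteins and E2F partners, 3 rose, 4 fell and 10 did not pass, against 7.05% and 3.25% of all genes. The pocket proteins Rb1 (-0.60 ± 0.078, adjusted p = 0.00179) and Rbl2 (-0.56 ± 0.11, 0.0156), which restrain E2F, fell. Rbl1, a further pocket protein named after its values were seen, was at -0.18 ± 0.11 with overlapping arrays and did not pass (0.383). Cdk6, a kinase partner of the D-type cyclins (0.49 ± 0.07, 0.00297), and Myc, a transcription factor of growth (0.43 ± 0.076, 0.00898), rose. The remaining calls, named after their values were seen, were E2f8 (0.40 ± 0.072), an E2F that represses, Mycn (-0.43 ± 0.067), a relative of Myc, and Tfdp2 (-0.38 ± 0.07), a dimer partner of E2F. The Rbl2 call was lost without control replicate 2 or 3 (0.0530 and 0.0621).

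Of 6 measured inhibitors of cyclin-dependent kinases, 2 rose, 1 fell and 3 did not pass, against 7.05% and 3.25% of all genes. Cdkn2b, the gene of p15, read 6.67, 6.57 and 6.48 in control and 8.05, 8.03 and 8.16 in overexpression (1.51 ± 0.08, adjusted p = 1.02e-05). Cdkn2a, the shared gene of p16 and p19ARF, read 6.58, 6.57 and 6.62 against 7.38, 7.34 and 7.70 (0.88 ± 0.10, 0.000992). Cdkn1b, the gene of p27, fell by 0.30 ± 0.076 (0.0421), a call that ended without any 1 array (0.0534 to 0.154). The rises of Cdkn2b and Cdkn2a were in the same arrays in which the mitosis members were lower, and their part in those values was not tested.

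Markers of ES cells and of other cell types were read beside these groups, against 3.25% of all genes that fell and 7.05% that rose. Of 9 ES cell markers, 3 fell, none rose and 6 did not pass. Tdgf1 (-0.35 ± 0.072), Nanog (-0.34 ± 0.068) and Sox2 (-0.29 ± 0.076) fell, while Pou5f1 (0.19 ± 0.079) and Dppa5a (0.11 ± 0.070) did not pass but read higher in every overexpression array than in any control array. Sox2, Pou5f1 and Dppa5a are named after their values were seen. The summed linear signal of the 9 ran from 20528 to 21501 in control and from 20346 to 20463 in overexpression. These ranges lie close together but do not overlap, with overexpression lower. Without Dppa5a, the brightest of the 9 markers, the sums ran from 13591 to 14015 in control and from 12384 to 12718 in overexpression. The calls of Tdgf1 and Nanog were lost on leaving out any 1 control array (adjusted p up to 0.0864 and 0.0765), and that of Tdgf1 also without overexpression replicate 2 (0.0534).

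Of 9 fibroblast markers 5 rose and 4 did not pass, with 1 of the 9 below 0 and a highest control mean of 6.45. The rises were led by the collagens Col1a1 (1.34 ± 0.12) and Col1a2 (0.98 ± 0.088), and the sums were 368 to 407 in control and 605 to 663 in overexpression. Of 7 endoderm markers 3 rose and 4 did not pass, with Dab2 (0.77 ± 0.083) and Sox17 (0.58 ± 0.13) among the rises and sums of 292 to 309 and 367 to 394. Of these markers 2 lay below 0. Their highest control mean was 5.91, close to the control array medians of 5.60 to 5.62, so they were dim. The Sox17 call was lost on leaving out any 1 control array (adjusted p up to 0.0869). Of 7 trophoblast markers 3 rose and 4 did not pass, with Krt7 (2.34 ± 0.11) and Hand1 (0.98 ± 0.072) among the rises. Tfap2c (-0.22 ± 0.069) and Elf5 (-0.25 ± 0.12), named after their values were seen, lay below 0 and did not pass. The trophoblast sums were 493 to 516 and 808 to 876, and without Krt7 they were 435 to 459 and 522 to 574. Array signal has no true 0, so no marker could be read as absent. The fibroblast, endoderm and trophoblast sums were higher in the arrays where the mitosis members were lower, and their part in those values was not tested.

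By promoter element, the 12 measured mitosis members with the CHR core TTTGAA had a median difference of -0.23 and the 5 without it -0.24. Of the further mitosis genes, the 36 with the core had a median of -0.19 and the 31 without it -0.06, and 54.4% of those with a promoter entry held it. The differences between these medians were not tested, and promoters without TTTGAA were not searched for variant forms of the CHR.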

How the data were processed

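Each of 6 RNA samples went on its own Affymetrix whole-transcript array. Per the submitters' processing notes the authors used RMA (robust multi-array average), and the deposited values are its log2 signals. The sources used here do not give the RMA version or settings. RMA gives all arrays a like distribution, which would hide a shift common to most genes. The table held 35556 probe sets, from 0.84 to 14.38, with 0 missing. Array medians were 5.60 to 5.62 in control and 5.54 to 5.59 in overexpression. Detection calls were not used here. Precision is limited by the number of arrays.

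The platform annotation gave 1 symbol for 21789 probe sets, several for 1621 and none for 12146. Of the first, 21698 matched GRCm38.p6 by gene identifier. Each of 19938 genes was read on the brightest, by mean over arrays, of the probe sets annotated to it alone.

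Groups were compared with limma 3.58.1 in R 4.3.3 (lmFit, eBayes, two-sided, no covariates, no filter), with Benjamini-Hochberg adjustment over all genes and a threshold of 0.05. Differences are overexpression minus control on the log2 scale ± SE. The procedure was tested on simulated data. Figures used matplotlib 3.10.9 in Python 3.11.15.

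The members and lists were chosen with earlier results of these data known. All 40 members are named, and of each further list up to 2 passing genes in each direction with the largest change, or the gene with the smallest p where none passed. As alternatives, arrays were left out in turn, and there were a replicate block, filters on dim genes, array centring, quantile normalization, other uses of probe sets, other variance estimates and a stricter threshold.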

Additional observations from a re-analysis of the deposited data

How the results depend on the processing

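With 3 arrays a group, differences of the size seen here lie close to the threshold, and counts of calls depended on the settings. With each array left out in turn, calls over all genes ran from 862 to 1232 higher and from 280 to 763 lower (1.4% to 3.83%). In those fits mitosis members ran from 0 to 6 lower and replication and G1/S members from 0 to 1 lower. The further mitosis genes ran from 4 to 18 lower and the further replication genes from 0 to 3 lower. Same-numbered arrays correlated at -0.019, -0.016 and -0.117 in their deviations from the group means, so no strong shared effect of replicate number was seen. That cannot settle whether same-numbered samples were handled as pairs, which the labels do not say. With a replicate block, 383 genes (1.92%), 0 mitosis members, 6 further mitosis genes and 0 further replication genes were lower.

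Leaving out the genes below the 30th percentile of mean signal, 990 genes and 8 mitosis members were lower, 1 replication and G1/S member was lower and 2 higher, and 2 further replication genes were lower. With genes under the median left out these were 1079, 11, 2, 3 and 5, with 22 further mitosis genes lower. Fewer genes were tested there. With arrays centred on their medians over all probe sets, 447 genes (2.24%) were lower and 1838 higher, and rises made up 80.4% of all calls against 68.5%. This centring raised the difference of every gene by the same 0.047. In that fit 1 mitosis member (Bub1), 7 further mitosis and 0 further replication genes were lower and 2 replication and G1/S members higher. Centring on the medians of all 19938 genes, chosen after seeing the data, left 613 genes (3.07%) lower. Among them were 3 mitosis members (Cenpe not called, 0.0528), 9 further mitosis and 0 further replication genes. Under quantile normalization 810 genes (4.06%) and 11 mitosis members were lower, and 1 replication and G1/S member was lower and 1 higher. In that fit 19 further mitosis and 3 further replication genes were lower. The medians were -0.26 for the mitosis and -0.032 for the replication and G1/S members. A trended and robust variance prior gave 1115 genes (5.59%) lower and 2061 higher. In that fit 11 mitosis members were lower, 2 replication and G1/S members were lower and 4 higher, and 24 further mitosis and 4 further replication genes were lower. Array weights gave 1098 genes (5.51%), 8 mitosis members, 2 replication and G1/S members and 4 further replication genes lower. An adjusted p under 0.01 left 765 genes higher and 219 (1.1%) lower, with 0 mitosis members, 4 further mitosis genes and 0 further replication genes lower. Centring adds a constant to every difference, and the filters change the number of genes tested. Other causes of these shifts were not tested.

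Signs turned only for members whose difference lay between -0.08 and 0.06. Under quantile normalization they were Birc5 (-0.026), Mcm2 (-0.049), Mcm3 (-0.021), Mcm4 (-0.020), Mcm5 (-0.005) and Rrm2 (-0.037), and with array weights Rrm2 (-0.014). With centred arrays they were Ccna2 (0.0033), Cdc45 (0.037), Ccnd2 (0.0033) and E2f1 (0.013), where every difference was raised by 0.047. With 1 array left out, the differences ran from -0.023 to 0.072 for Birc5, -0.033 to 0.027 for Cdc45, -0.12 to 0.015 for E2f1, -0.015 to 0.070 for Rrm2, -0.03 to 0.105 for Cdc6, -0.135 to 0.005 for Mcm6 and -0.07 to 0.01 for Ccnd2. The mitosis median stayed between -0.26 and -0.16 in every alternative that refitted it.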
